A study of Macaca fascicularis with 7 samples.

Results

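The genes described here encode the DEAD and DEAH box RNA helicases, taken as every row of the deposited count table whose symbol starts with DDX or DHX followed by a digit, without DDX4 and DDX6. That rule gave 51 of 28161 gene rows, 35 named DDX and 16 named DHX, and it used no measured value. They were followed in 7 RNA libraries of wild-type oocytes of the cynomolgus monkey (Macaca fascicularis). Oocytes at the germinal vesicle stage (GV), before meiosis resumes, gave 2 libraries and are labelled as control treatment. Metaphase II (MII) oocytes matured in the animal (IVO MII) gave 2 libraries and are also labelled as control. MII oocytes matured in culture (IVM MII) gave 3 libraries and are labelled as treated. The labels give no age, animal or number of oocytes per library, so the p-values reflect only how far these samples spread, which may be technical.

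DEAD and DEAH box helicases are named after the letters of a conserved ATP-binding motif. They use ATP to open short RNA duplexes or to remodel complexes of RNA and protein, and so act at nearly every step of an RNA's life: transcription, splicing, export, ribosome assembly, translation, storage and decay. A growing oocyte makes and stores the RNA that it later needs, and transcription is silent while it matures to MII, so that maturation works on stored transcripts, some of which are degraded and others kept or polyadenylated.

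Library totals ran from 22901970 to 29245733 counts, and the members took between 0.246% and 0.394% of the counts of a library. Levels are given as CPM, the usual counts scaled to a fixed library size, with library sizes corrected by TMM (trimmed mean of M values), for 1 gene across libraries. Levels of different genes are compared only per length, as CPM per kilobase of the gene length listed in the table. All levels are relative to the rest of a library, and amounts of RNA per oocyte cannot be read from them. Below, rose and fell mean higher or lower than in GV on this relative scale. A count of 3, the limit that a count of 0 allows, is worth 0.0907 to 0.161 CPM, and this covers counting error only. Values after ± are SDs between libraries (GV n = 2, IVO MII n = 2, IVM MII n = 3), and the order of values in a sentence is the order of replicate numbers. A marker was counted as reaching 10 CPM when at least 1 library did. All 12 oocyte markers reached it, but FIGLA, NOBOX and ZAR1 were under 10 CPM in some MII libraries. The table holds 13 of the cumulus and granulosa markers. Of these, 3 reached 10 CPM (FSHR, HAS2 and TNFAIP6), and PTX3 and PTGS2 were at 0. The list summed to 18.1 to 19.8 CPM in GV, 64.3 to 100.03 in IVO MII and 98.2 to 219 in IVM MII. Of 10 markers of stroma, theca and endothelium 4 reached 10 CPM, COL3A1 and LUM were at 0, and the list summed to 1093 to 1221 CPM in GV, 92.3 to 128 in IVO MII and 74.0 to 90.9 in IVM MII, with 991 and 1140 CPM in GV from VWF alone. Of 8 blood markers 1 (CSF1R) reached 10 CPM, LYZ and CD14 were at 0, and the list summed to 25.6 to 33.8 CPM in GV against 0.161 to 3.54 in all MII libraries. The part of these levels in the comparisons with GV was not tested. In the column headers the alignment files of both GV libraries stand in another folder than those of all MII libraries, and that folder and the stage cannot be told apart.

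Between GV and MII a minority of the helicase genes was called, some higher and some lower, and 24 of 48 tested members in IVO MII and 22 in IVM MII differed from GV by less than 2 times. The ribosome biogenesis helicase DDX18, the G-quadruplex helicase DHX36, the splicing helicase DDX46, DDX59 and DHX32 were higher in both kinds of MII oocyte, by 1.40 to 3.07 on the log2 scale. The nucleolar helicase DDX56, the mRNA export helicases DDX39A and DDX39B, the U5 helicase DDX23 and the RNA sensor regulator DHX58 were lower in both, with log2 fold changes of -2.58 to -4.83. In edgeR's quasi-likelihood test, 48 members had enough counts to be tested. At a Benjamini-Hochberg adjusted p under 0.05, 14 members (29.2%) were called between IVO MII and GV, where 28.1% of all 16374 genes tested were called. Of these, 8 were higher (background 14.6%) and 6 lower (background 13.5%). Between IVM MII and GV 15 members (31.2%) were called against 36.3% of all genes, 8 higher (background 18.5%) and 7 lower (background 17.8%). The share of members called was therefore close to that of genes at large in IVO MII and somewhat under it in IVM MII.

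The median log2 fold change of the members was -0.01 from GV to IVO MII and 0.24 from GV to IVM MII, against -0.16 and -0.10 over all genes. In 34 members the IVO MII libraries did not overlap the GV libraries (72.8% of all genes did not), and in 35 the IVM MII libraries did not (69.1%). The 2 comparisons share the GV libraries, so their values are set side by side and are not independent of each other. With unscaled library totals, which lowered the median of all genes to -0.78 in IVO MII and -0.80 in IVM MII, 2 of the members were called higher and 6 lower in IVO MII (25% higher, against 57.1%), and 3 higher and 14 lower in IVM MII (17.6% higher, against 53.3%). The calls also leaned on single libraries: for IVO MII the members called numbered 4 when GV replicate 1 was left out, 5 when it was GV replicate 2 and 8 (of them 6 of the 14) when it was IVO MII replicate 1, and for IVM MII 5 and 8 when GV replicate 1 or 2 was left out. The share of all genes called fell with them, to 8.60%, 9.80% and 17.3% for IVO MII and to 12.2% and 14.7% for IVM MII. Each GV library left out leaves that stage with 1 sample, which is then taken to vary like the other groups.

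**Figure D1:**
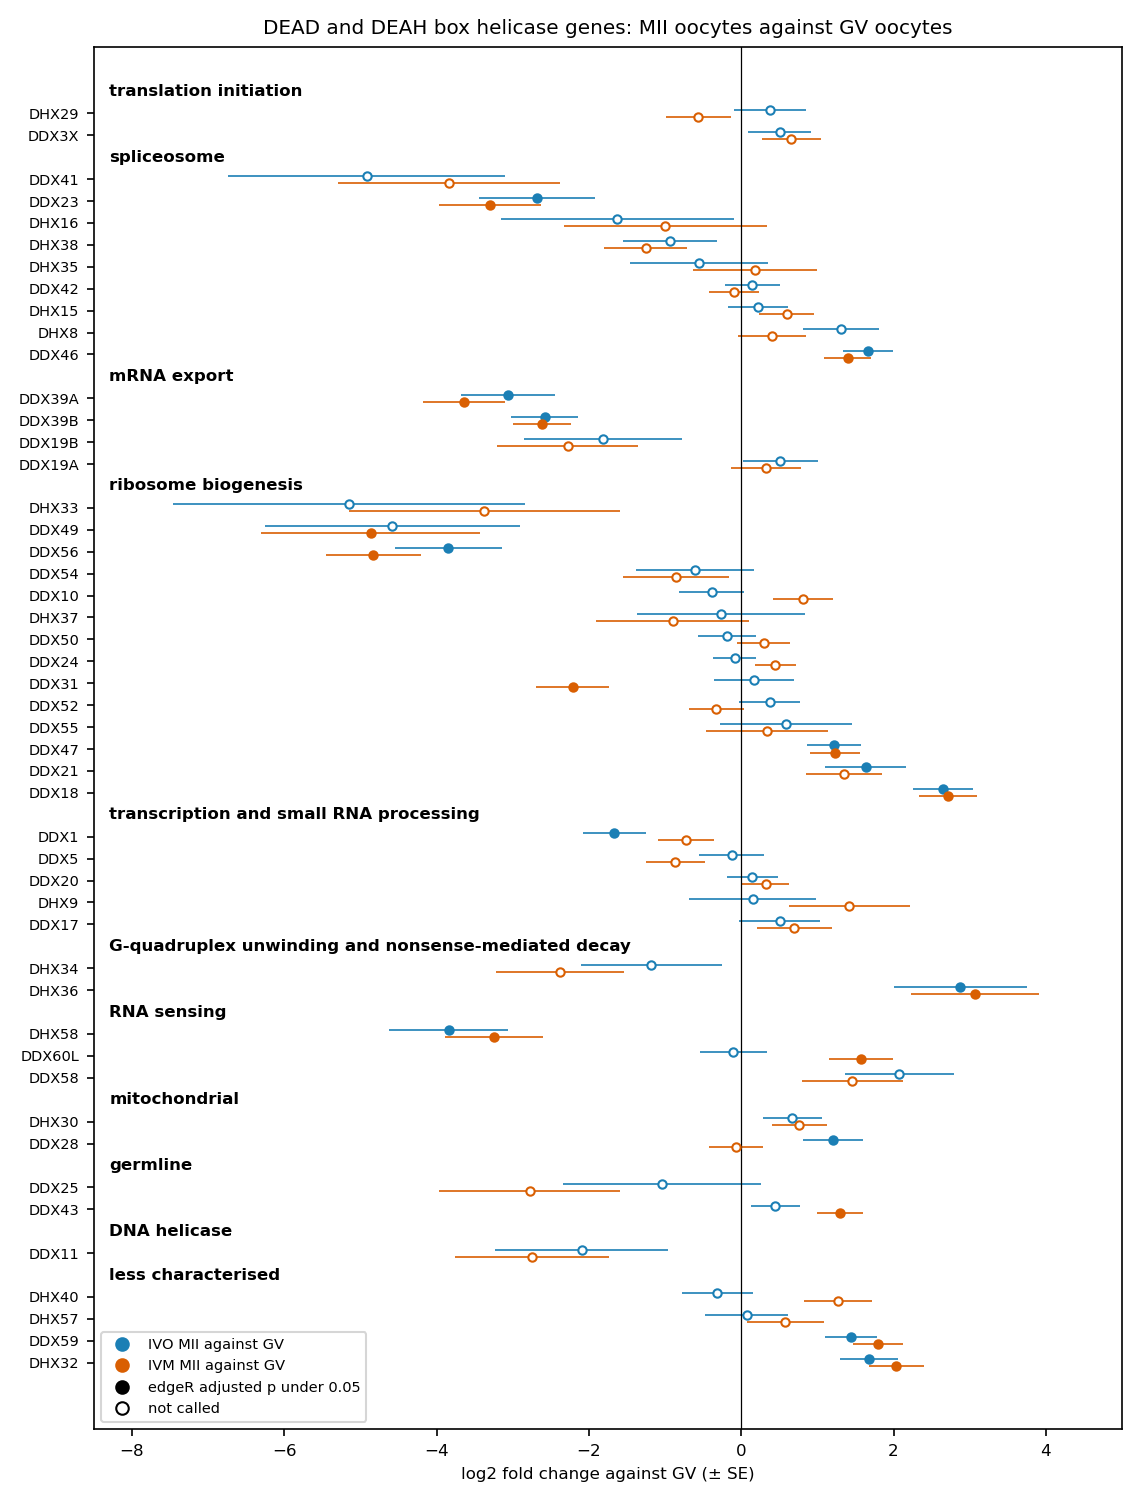
Log2 fold change against GV (x axis, with standard errors as lines) of the 48 tested members, grouped by role, for IVO MII (blue) and IVM MII (orange). Filled points are called at an adjusted p under 0.05; the mRNA export helicases DDX39A and DDX39B and the nucleolar DDX56 lie far to the left in both, and DDX18 and DHX36 far to the right.

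The ribosome biogenesis helicases, nucleolar enzymes that remodel pre-ribosomal RNA and its protein complexes, were the largest group with 15 members. Of 14 tested, 3 rose (DDX47, DDX18 and DDX21) and 1 fell (DDX56) in IVO MII, and 2 rose (DDX47 and DDX18) and 3 fell (DDX31, DDX49 and DDX56) in IVM MII. Their median log2 fold changes were -0.14 and -0.02. DDX18 (chromosome 12, 14356204 to 14374005 on the build of the table, which is not named) acts on the large ribosomal subunit. It was at 47.4 and 69.6 CPM in GV, 429 and 304 in IVO MII, and 492, 343 and 320 in IVM MII. Every MII library was above both GV libraries by more than 4 times. The log2 fold change was 2.65 (SE 0.40, adjusted p = 0.00298) in IVO MII and 2.72 (SE 0.38, adjusted p = 0.00184) in IVM MII, and DDX18 kept its call in all 17 alternative analyses of each comparison.

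DDX56 (chromosome 3, 75942220 to 75950717), which is needed for assembly of the large subunit, went the other way. Its CPM were 293 and 189 in GV, 7.24 and 26.3 in IVO MII, and 7.62, 5.03 and 12.7 in IVM MII. The lowest GV library was thus more than 7 times the highest MII library. The log2 fold change was -3.85 (SE 0.71, adjusted p = 0.00575) in IVO MII and -4.83 (SE 0.62, adjusted p = 0.00156) in IVM MII, again called in all 17 alternatives. DDX49, another nucleolar helicase, was much rarer: 12.5 and 9.52 CPM in GV, 0 and 0.887 in IVO MII, and 0, 0.761 and 0.338 in IVM MII. All MII libraries were under 1 CPM. DDX49 was called in IVM MII (log2 fold change -4.87, SE 1.44, adjusted p = 0.0292) but not in IVO MII (-4.58, SE 1.67, adjusted p = 0.0708). Some alternatives called DDX49 in IVO MII too, among them DESeq2 (adjusted p = 0.0071), limma voom (0.0172) and edgeR's other dispersion method (0.00358). Others, such as upper quartile scaling, did not. The IVM MII call was lost without GV replicate 1 (adjusted p = 0.121), GV replicate 2 (0.0815), IVM MII replicate 1 (0.05001) or IVM MII replicate 3 (0.0659). DHX33 was at 5.20 and 2.34 CPM in GV and at most 1.05 CPM in an MII library, and was called in neither comparison. Some alternatives called DHX33 in IVO MII, among them DESeq2 (adjusted p = 0.0471) and limma voom (0.0350), and others did not.

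DDX47, an rRNA processing helicase, was at 85.4 and 99.0 CPM in GV, 236 and 194 in IVO MII, and 211, 164 and 274 in IVM MII. Its log2 fold change was 1.22 (SE 0.35, adjusted p = 0.0325) in IVO MII and 1.23 (SE 0.33, adjusted p = 0.0203) in IVM MII. In both MII groups the DDX47 libraries lay above GV, but the calls were lost without GV replicate 1 (adjusted p = 0.234 and 0.186), GV replicate 2 (0.154 and 0.120) or IVM MII replicate 1 (0.0543 and 0.0523), and in IVO MII also without its own replicate 1 (0.111). With unscaled library totals both were lost, at log2 fold changes of 0.59 (adjusted p = 0.232) and 0.52 (adjusted p = 0.228). DDX21 and DDX50 are neighbouring nucleolar paralogs on chromosome 9. DDX21 counted 3.99 and 3.07 CPM in GV, 10.8 and 11.1 in IVO MII, and 10.4, 6.38 and 10.3 in IVM MII, so that all MII libraries were above GV. It was called in IVO MII (log2 fold change 1.63, SE 0.53, adjusted p = 0.0484) and not in IVM MII (1.35, SE 0.49, adjusted p = 0.0602). That call sat close to the threshold and was lost in 10 of 17 alternatives, with adjusted p values of 0.203 and 0.290 without GV replicate 1 or 2, 0.0945 and 0.0869 without IVO MII replicate 1 or 2, and 0.0641 and 0.0552 without IVM MII replicate 1 or 2. With unscaled library totals DDX21 stood at a log2 fold change of 1.0095 (adjusted p = 0.188). DDX50 was at 32.0 and 39.8 CPM in GV, 27.5 and 35.6 in IVO MII, and 52.6, 44.7 and 34.6 in IVM MII, with overlapping groups and no call. The other tested members of the group, none of them called, were DDX24, DDX10, DDX52, DDX54, DDX55 and DHX37, whose log2 fold changes lay between -0.60 (DDX54) and 0.59 (DDX55) in IVO MII and between -0.90 (DHX37) and 0.81 (DDX10) in IVM MII.

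Of the 9 spliceosome helicases, which drive the rearrangements of the splicing machinery, 1 rose and 1 fell in each MII group. DDX46 (chromosome 6, 133819747 to 133902771), the counterpart of yeast Prp5 that acts when the U2 particle binds the branch site, rose. It was at 25.9 and 26.6 CPM in GV, 87.7 and 79.2 in IVO MII, and 69.3, 70.7 and 67.5 in IVM MII. The replicates lay close together and the groups far apart, with log2 fold changes of 1.67 (SE 0.33, adjusted p = 0.00729) and 1.40 (SE 0.31, adjusted p = 0.00877). Both calls were lost without GV replicate 1 (adjusted p = 0.0934 in IVO MII and 0.118 in IVM MII) or GV replicate 2 (0.0838 and 0.101). With unscaled library totals the IVM MII call was lost too (log2 fold change 0.68, adjusted p = 0.105). DDX23 (chromosome 11, 47650033 to 47671630), a component of the U5 particle, fell. Its CPM were 23.2 and 23.1 in GV, 1.73 and 5.44 in IVO MII, and 1.34, 1.69 and 3.99 in IVM MII. Every MII library was more than 4 times under both GV libraries, and the log2 fold changes were -2.69 (SE 0.76, adjusted p = 0.0308) and -3.30 (SE 0.67, adjusted p = 0.00646). The IVO MII call was lost without GV replicate 1 (adjusted p = 0.116), GV replicate 2 (0.113) or IVO MII replicate 1 (0.116), while the IVM MII call held in all 17 alternatives. Of its exon bases 11.7% are shared with a gene on the opposite strand, and whether the counting used strand is not given.

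The 7 other spliceosome members were not called. DDX41 was at 5.11 and 2.47 CPM in GV and at most 0.507 CPM in an MII library, with adjusted p = 0.0735 in IVO MII and 0.0672 in IVM MII. Some alternatives called DDX41 in IVO MII, among them DESeq2 (adjusted p = 0.0101) and limma voom (0.0250). Others, such as upper quartile scaling, did not. DHX8, DHX15, DHX16, DHX35, DHX38 and DDX42 had log2 fold changes from -1.63 (DHX16) to 1.31 (DHX8) in IVO MII and from -1.26 (DHX38) to 0.60 (DHX15) in IVM MII.

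The mRNA export helicases load export factors onto mRNA in the nucleus (DDX39A and DDX39B) or release the mRNA at the outer face of the nuclear pore (DDX19A and DDX19B). Both nuclear members fell in both MII groups and neither pore member was called. DDX39A (chromosome 19, 14782689 to 14794984) was at 104 and 108 CPM in GV, 4.99 and 20.4 in IVO MII, and 8.32, 7.94 and 9.21 in IVM MII. DDX39B (chromosome 4, 139340516 to 139352444) was at 66.8 and 56.6 CPM in GV, 10.2 and 10.4 in IVO MII, and 7.24, 13.0 and 9.89 in IVM MII. For each gene every MII library was more than 4 times under every GV library. The log2 fold changes of DDX39A were -3.06 (SE 0.62, adjusted p = 0.0083) and -3.64 (SE 0.54, adjusted p = 0.00218), and those of DDX39B -2.58 (SE 0.44, adjusted p = 0.00446) and -2.62 (SE 0.38, adjusted p = 0.00202). All 4 calls held in all 17 alternatives.

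DDX19A was at 19.1 and 14.8 CPM in GV, 26.0 and 22.4 in IVO MII, and 23.6, 11.7 and 28.5 in IVM MII. DDX19B, its neighbour on chromosome 20, was at 11.3 and 10.2 CPM in GV, 2.24 and 3.86 in IVO MII, and 3.70, 0.211 and 2.75 in IVM MII. DDX19B lay under GV in all 5 MII libraries, with log2 fold changes of -1.82 (SE 1.04, adjusted p = 0.22) and -2.28 (SE 0.92, adjusted p = 0.083), whereas DDX19A did not. These 2 genes, like DDX39A and DDX39B, are close copies of each other, and the treatment of reads that match both is not given, so their split is uncertain.

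**Figure D2:**
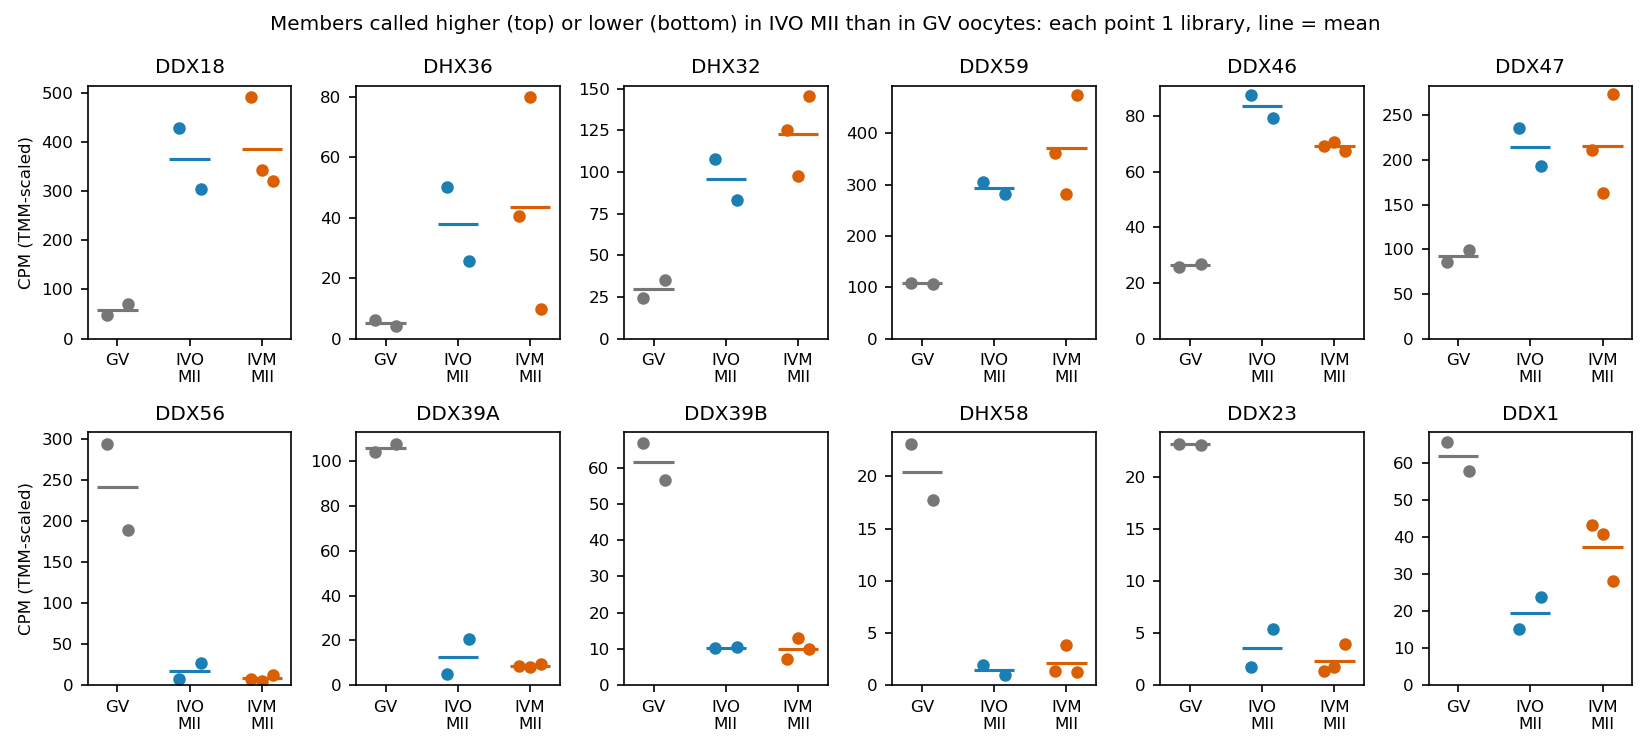
CPM (y axis, starting at 0) in each library for 6 members called higher (top row) and 6 called lower (bottom row) in IVO MII than in GV; each point is 1 library and each line a group mean. DDX46 shows the tight MII groups at 67.5 to 87.7 CPM, DHX36 the wide IVM MII group from 9.63 to 79.9 CPM, and DDX1 IVM MII values between those of GV and IVO MII.

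The 2 members of the translation initiation group, DDX3X, which helps scan structured leader sequences, and DHX29, which acts on the small ribosomal subunit, were not called in either comparison. DDX3X was between 95.6 and 112 CPM in GV, 144 and 152 in IVO MII, and 110 and 244 in IVM MII. DHX29 had log2 fold changes of 0.37 (SE 0.47) in IVO MII and -0.56 (SE 0.43) in IVM MII.

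Of the 5 members that act with transcription or small RNA processing, DDX1 alone was called, and in IVO MII only. DDX1 belongs to the tRNA ligase complex. It was at 65.7 and 57.9 CPM in GV, 15.1 and 23.7 in IVO MII, and 43.3, 40.8 and 28.1 in IVM MII. IVM MII lay between the 2 other groups without overlap: the log2 fold change was -1.67 (SE 0.41, adjusted p = 0.0185) from GV to IVO MII and -0.73 (SE 0.36, adjusted p = 0.146) from GV to IVM MII. The difference between the 2 MII groups was 0.94 (SE 0.38, adjusted p = 0.203) and did not pass the test. The IVO MII call was lost without GV replicate 1 (adjusted p = 0.118), GV replicate 2 (0.0823) or IVO MII replicate 1 (0.0818). DDX5 and DDX17, paralogous cofactors of transcription and of the microRNA processor, were not called: DDX5 was at 481 and 318 CPM in GV, 231 and 503 in IVO MII, and 212, 257 and 189 in IVM MII. DDX17 was at 15.2 and 14.4 CPM in GV, 12.2 and 29.8 in IVO MII, and 27.0, 16.1 and 29.2 in IVM MII. Of the exon bases of DDX17, 22.5% are shared with KDELR3 on the opposite strand. DDX20 and DHX9 had log2 fold changes of 0.14 and 0.15 in IVO MII and 0.32 and 1.42 in IVM MII, with no call.

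DHX36 (chromosome 2, 56686840 to 56741493) unwinds G-quadruplexes, 4-stranded folds of guanine-rich RNA or DNA. It was at 6.26 and 4.05 CPM in GV, 50.3 and 25.6 in IVO MII, and 40.7, 79.9 and 9.63 in IVM MII. All MII libraries were above GV, but IVM MII replicate 3 was only slightly so. The log2 fold changes, 2.88 (SE 0.87, adjusted p = 0.0383) and 3.07 (SE 0.84, adjusted p = 0.022), were the largest positive ones among the members. They were also among the least certain: the IVO MII call was lost without GV replicate 1 or 2 (adjusted p = 0.120 and 0.182), IVM MII replicate 1 (0.0570) or IVO MII replicate 1 (0.143), and the IVM MII call without GV replicate 1 or 2 (0.0870 and 0.129) or IVM MII replicate 2 (0.0573). With unscaled library totals DHX36 stood at adjusted p = 0.0878 in IVO MII and 0.0558 in IVM MII, and in limma voom at 0.0532 in IVO MII. DHX34, an activator of nonsense-mediated decay, stood at -1.18 (SE 0.92) in IVO MII and -2.38 (SE 0.84, adjusted p = 0.0535) in IVM MII on the log2 scale.

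The RNA sensing group holds the cytoplasmic sensor of viral RNA DDX58 (RIG-I), its relative DHX58 (LGP2), which modulates such sensing, and the interferon-induced pair DDX60 and DDX60L. DHX58 (chromosome 16, 53810116 to 53821553) fell: 23.1 and 17.7 CPM in GV, 1.89 and 0.964 in IVO MII, and 1.34, 3.80 and 1.28 in IVM MII. The groups were far apart, with log2 fold changes of -3.84 (SE 0.78, adjusted p = 0.00835) and -3.25 (SE 0.65, adjusted p = 0.00591). Without GV replicate 1 these calls stood at adjusted p = 0.0557 and 0.0523. DDX58 was at 63.8 and 51.0 CPM in GV, 124 and 360 in IVO MII, and 82.2, 94.3 and 296 in IVM MII, all above GV. With log2 fold changes of 2.07 (SE 0.72, adjusted p = 0.0595) and 1.46 (SE 0.66, adjusted p = 0.114) it was not called. Some alternatives called DDX58 in IVO MII, among them DESeq2 (adjusted p = 0.0168) and edgeR's other dispersion method (0.0329). Others, such as limma voom, did not. DDX60L (chromosome 5, 167597872 to 167772301) was at 58.1 and 43.7 CPM in GV, 59.0 and 35.9 in IVO MII, and 141, 103 and 209 in IVM MII. It was called in IVM MII (log2 fold change 1.57, SE 0.42, adjusted p = 0.0198) and not in IVO MII (-0.10, SE 0.44), and the IVM MII call was lost without GV replicate 1 (adjusted p = 0.0937) or 2 (0.163) and with unscaled library totals (log2 fold change 0.86, adjusted p = 0.130). DDX60 was too rare to test, with 2 and 1 counts in GV, 0 in both IVO MII libraries, and 0, 8 and 54 counts in IVM MII.

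The mitochondrial helicase DDX28 (chromosome 20, 56225499 to 56227416), which helps assemble the large mitochondrial ribosomal subunit, was at 37.4 and 22.0 CPM in GV, 62.8 and 74.0 in IVO MII, and 27.8, 26.5 and 30.9 in IVM MII. It was higher in both IVO MII libraries than in all others. The log2 fold change from GV was 1.20 (SE 0.39, adjusted p = 0.0494) in IVO MII and -0.07 (SE 0.35) in IVM MII. That call was lost in 13 of 17 alternatives, with adjusted p values of 0.118 and 0.365 without GV replicate 1 or 2, 0.0854 and 0.125 without IVO MII replicate 1 or 2, and 0.0755 and 0.0691 without IVM MII replicate 1 or 2. With unscaled library totals DDX28 stood at a log2 fold change of 0.58 (adjusted p = 0.320). Of the exon bases of DDX28, 14.7% are shared with DUS2 on the opposite strand. DHX30, which acts on mitochondrial ribosomes, stood at 0.67 (SE 0.39) and 0.76 (SE 0.36) on the log2 scale and was not called.

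Of the germline helicases, DDX43 was abundant, at 116 and 93.7 CPM in GV, 161 and 125 in IVO MII, and 289, 240 and 247 in IVM MII. It was called in IVM MII (log2 fold change 1.30, SE 0.30, adjusted p = 0.0112), and not in IVO MII (0.45, SE 0.32). The IVM MII call was lost without GV replicate 1 (adjusted p = 0.0837) or 2 (0.142) and with unscaled library totals (log2 fold change 0.58, adjusted p = 0.122). DDX25, known for its role in male germ cells, was at 32.9 and 21.3 CPM in GV, 11.7 and 14.6 in IVO MII, and 0, 6.04 and 5.75 in IVM MII, lower in all MII libraries without a call (adjusted p = 0.576 and 0.0975). DDX53 had 6 and 12 counts in GV and 0 in every MII library, and was not tested. The third untested member, DDX51 of the ribosome biogenesis group, had 9 and 11 counts in GV and 0 to 3 in the MII libraries. DDX11, a DNA helicase of sister chromatid cohesion, had log2 fold changes of -2.09 (adjusted p = 0.196) and -2.74 (adjusted p = 0.0611).

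Among the 4 less characterised members, DDX59 and DHX32 rose in both MII groups. DDX59 (chromosome 1, 59001780 to 59027364) was at 108 and 107 CPM in GV, 304 and 282 in IVO MII, and 361, 282 and 474 in IVM MII. Its log2 fold changes were 1.44 (SE 0.34, adjusted p = 0.0158) and 1.79 (SE 0.33, adjusted p = 0.00424). DHX32 (chromosome 9, 125164137 to 125227259) was at 24.4 and 35.3 CPM in GV, 108 and 83.3 in IVO MII, and 125, 97.6 and 146 in IVM MII, and its log2 fold changes were 1.68 (SE 0.38, adjusted p = 0.0124) and 2.04 (SE 0.36, adjusted p = 0.00373). For both genes each MII library was more than 2 times each GV library. Without GV replicate 1 or 2 the DDX59 calls stood at adjusted p = 0.123 and 0.123 in IVO MII and 0.0545 and 0.0509 in IVM MII, and the DHX32 call in IVO MII at 0.142 and 0.0600. For IVM MII DHX32 stood at 0.0621 without GV replicate 1. For IVO MII, leaving out IVO MII replicate 1 put DDX59 at 0.0504 and DHX32 at 0.0514, and unscaled library totals put DDX59 at a log2 fold change of 0.81 (adjusted p = 0.107) and DHX32 at 1.04 (adjusted p = 0.0636). DHX57 and DHX40 were not called, DHX40 with log2 fold changes of -0.32 (SE 0.47) in IVO MII and 1.27 (SE 0.44, adjusted p = 0.0525) in IVM MII. The labels do not give the number of oocytes per library. Where a library pools several, fewer cells with a transcript and less of it per cell cannot be told apart.

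Per length, a few members held much of the helicase transcripts. The 6 with the highest mean level over the groups were DDX5, DDX59, DDX10, DDX47, DDX24 and DDX18, and together they held 48.3% ± 2.26 of the summed per-length level of all 51 members in GV. The share was 61.8% ± 2.03 in IVO MII oocytes and 63.6% ± 2.84 in IVM MII oocytes. These shares depend on which genes are chosen: the 6 leading members of GV itself, which include DDX56 and not DDX18, held 58.6% ± 1.03 there, and the 6 leading ones of IVM MII 64.6% ± 3.10. They are a description and were not tested. DDX5 led in GV with 182 and 120 CPM per kilobase and in IVO MII with 87.2 and 190, but in IVM MII it was at 80.0, 97.1 and 71.5. DDX59 was at 45.1 and 44.6 CPM per kilobase in GV, 127 and 117 in IVO MII, and 150, 117 and 197 in IVM MII, where its mean was the highest. The DDX5 libraries spread too widely in IVO MII to place it above or below DDX59 there.

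DDX10, a nucleolar helicase of small subunit processing, was at 76.6 and 93.3 CPM per kilobase in GV, 59.6 and 70.0 in IVO MII, and 192, 172 and 83.2 in IVM MII. It was above DDX59 in IVM MII replicates 1 and 2 and below it in replicate 3, which alone put the mean of DDX59 first. DDX24, another nucleolar member, was at 71.0 and 79.2 CPM per kilobase in GV, 70.8 and 70.6 in IVO MII, and 106, 101 and 100 in IVM MII. DDX24 thus spanned the narrowest range of the 6, and neither gene was called in any of the 3 comparisons. DDX47 per length was at 45.2 and 52.4 CPM per kilobase in GV and between 86.6 and 145 in the MII libraries. DDX18 moved from 1.79% ± 0.630 of the pool in GV to 9.93% ± 3.23 in IVO MII and 9.09% ± 1.82 in IVM MII, and from the 14th to the 4th and 5th place. DDX56 moved the opposite way, from 12.1% ± 2.66 and the 2nd place in GV to 0.730% ± 0.541 (IVO MII) and 0.335% ± 0.147 (IVM MII). The ribosome biogenesis group as a whole held 43.0% ± 2.95, 40.4% ± 4.44 and 45.1% ± 4.45, differences within the spread between libraries, while the mRNA export group went from 8.69% ± 0.350 to 1.84% ± 0.202 and 1.37% ± 0.196. Members with a mean of at least 1 CPM numbered 48 (GV), 44 (IVO MII) and 43 (IVM MII).

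**Figure D3:**
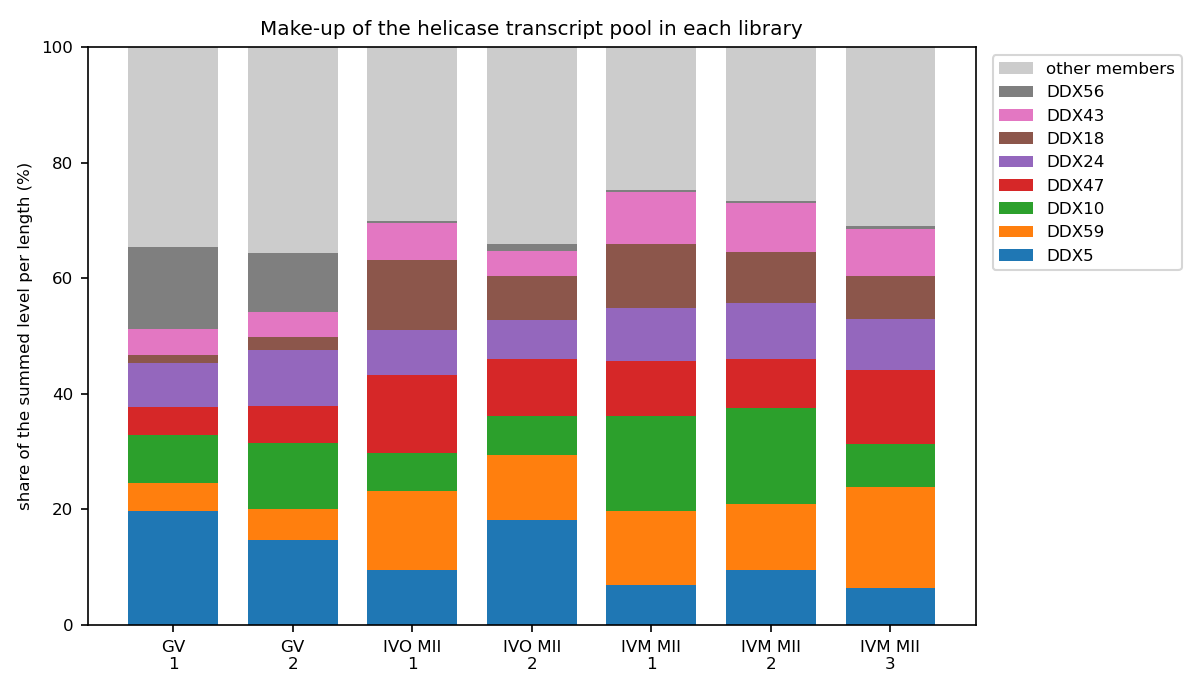
Share (y axis, percent) of the summed level per length of all 51 members held by 8 members in each of the 7 libraries. DDX56 takes 10.3% to 14.0% in GV and at most 1.11% in the MII libraries, while DDX18 and DDX59 widen and DDX5 ranges from 6.34% to 19.6%.

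Some paralog pairs differed in proportion between GV and MII, and others overlapped or rested on few counts. The log2 ratio of DDX19A to DDX19B per length was 0.88 and 0.65 in GV, 3.66 and 2.66 in IVO MII, and 2.79, 5.91 and 3.50 in IVM MII. DDX19A was thus above DDX19B in every library, and the ratio was higher in all MII libraries than in GV. The 5.91 rests on 5 counts of DDX19B, and the split of reads between these close copies is uncertain. DDX5 over DDX17 stood at log2 ratios of 5.86 and 5.34 in GV, 5.12 and 4.96 in IVO MII, and 3.85, 4.88 and 3.58 in IVM MII, so that DDX5 remained far above DDX17 in every library and the ratio was lower in all MII libraries than in GV. DDX21 over DDX50 stood at -3.06 and -3.75 in GV, -1.41 and -1.73 in IVO MII, and -2.40, -2.86 and -1.80 in IVM MII, so DDX50 was the more abundant one throughout. For DDX39A over DDX39B the ratio was 0.38 and 0.67 in GV, -1.29 and 0.70 in IVO MII, and -0.06, -0.97 and -0.36 in IVM MII, where the 2 IVO MII libraries differed in sign and overlapped GV. DDX60 over DDX60L stood at log2 ratios of -9.04 and -9.57 in GV and -7.39 and -5.82 in IVM MII replicates 2 and 3. DDX60 had no counts elsewhere, and the GV ratios rest on 2 and 1 counts of it.

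Between the 2 kinds of MII oocyte, which is the comparison of maturation in culture with maturation in the animal, no member passed the test. At an adjusted p under 0.05 edgeR called 0 of 48, where 1.47% of all genes tested were called. At an unadjusted p under 0.05 there were 7 members (14.6%) against 21.1% of all genes, and in 16 members the groups did not overlap (33.8% of all genes did not). The median log2 fold change was -0.02, against 0.00 over all genes, and 38 members differed by less than 2 times. With standard errors of 0.27 to 2.01 (median 0.46) on the log2 scale, the count of 0 does not show equal levels. DESeq2 called 4 members (DDX31, DHX40, DDX28 and DDX60L) where it called 12.3% of all genes, limma voom 0 (3.04%), and edgeR with its other dispersion method 1 (4.71%). Without IVM MII replicate 3 edgeR called 3 (DDX10, DDX31 and DHX40) and 7.89% of all genes, and without IVO MII replicate 1 it called 1 (DDX31) and 2.09% of all genes.

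**Figure D4:**
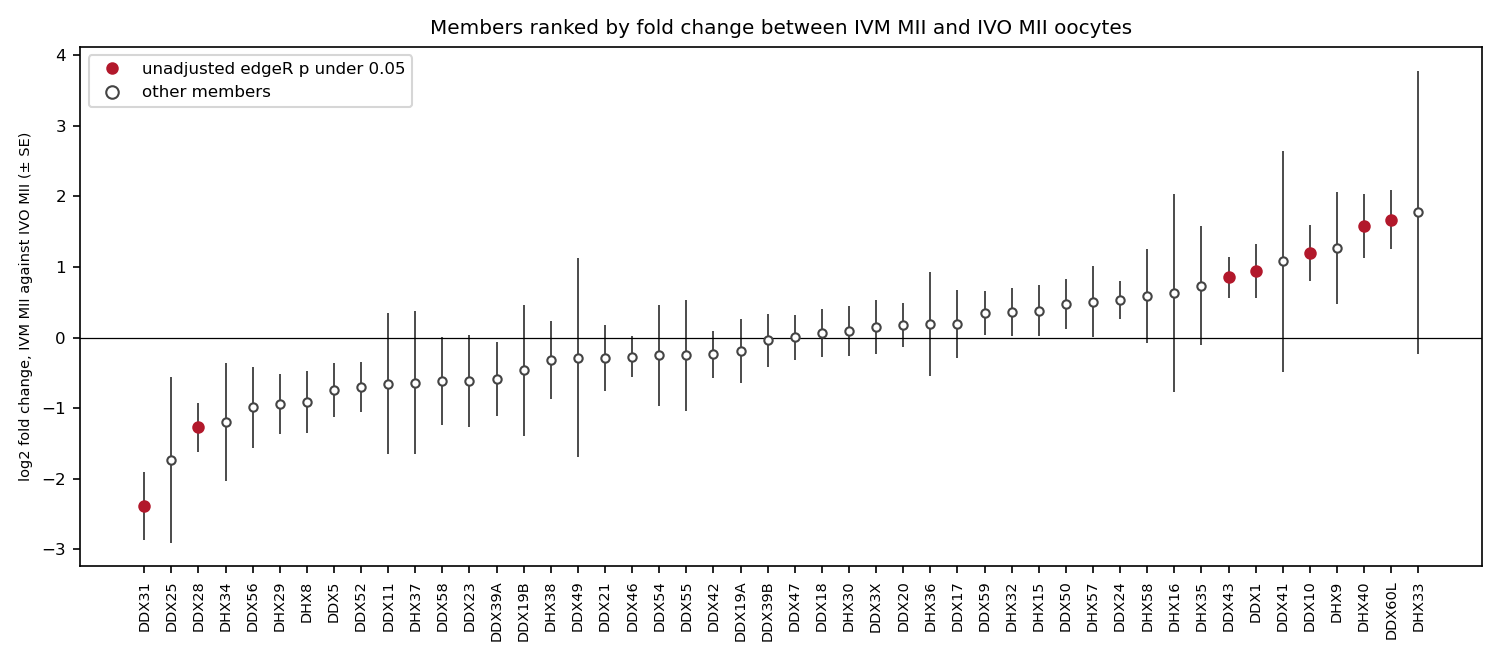
Log2 fold change of IVM MII against IVO MII (y axis, with standard errors as lines) of the 48 tested members, in rank order. Red points mark the 7 members with an unadjusted p under 0.05: DDX31 and DDX28 at the low end, and DDX43, DDX1, DDX10, DHX40 and DDX60L at the high end; none passed after adjustment.

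DDX31 (chromosome 15, 6134792 to 6281042), a nucleolar helicase, came nearest. It was at 39.0 and 30.9 CPM in GV, 20.2 and 58.4 in IVO MII, and 6.81, 6.85 and 8.95 in IVM MII. All IVM MII libraries were under 10 CPM and the other libraries were all above 20. The log2 fold change of IVM MII against IVO MII was -2.38 (SE 0.48, adjusted p = 0.0515), and 9 of 17 alternatives took it past the threshold. From GV it was -2.21 (SE 0.48, adjusted p = 0.0085) in IVM MII, a call lost without GV replicate 1 (adjusted p = 0.0631), and 0.17 (SE 0.53) in IVO MII. DDX60L, with the values given above, was higher in all 3 IVM MII libraries than in both IVO MII libraries, by a log2 fold change of 1.67 (SE 0.42, adjusted p = 0.0801). DDX28 was lower in all 3, by -1.27 (SE 0.35, adjusted p = 0.0964). DHX40 was at 45.4 and 34.7 CPM in GV, 32.7 and 31.7 in IVO MII, and 132, 106 and 50.7 in IVM MII, with a log2 fold change of 1.58 (SE 0.45, adjusted p = 0.103) between the MII groups. IVM MII replicate 3 was the lowest of its group and the nearest to IVO MII. The cumulus and granulosa marker sum, 64.3 to 100.03 CPM in IVO MII and 98.2 to 219 in IVM MII, overlapped between the groups. FSHR and TNFAIP6 were higher in all 3 IVM MII libraries and HAS2 lower (39.4 and 38.6 CPM in IVO MII against 13.5, 9.72 and 19.5), and their part in these values was not tested.

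**Figure D5:**
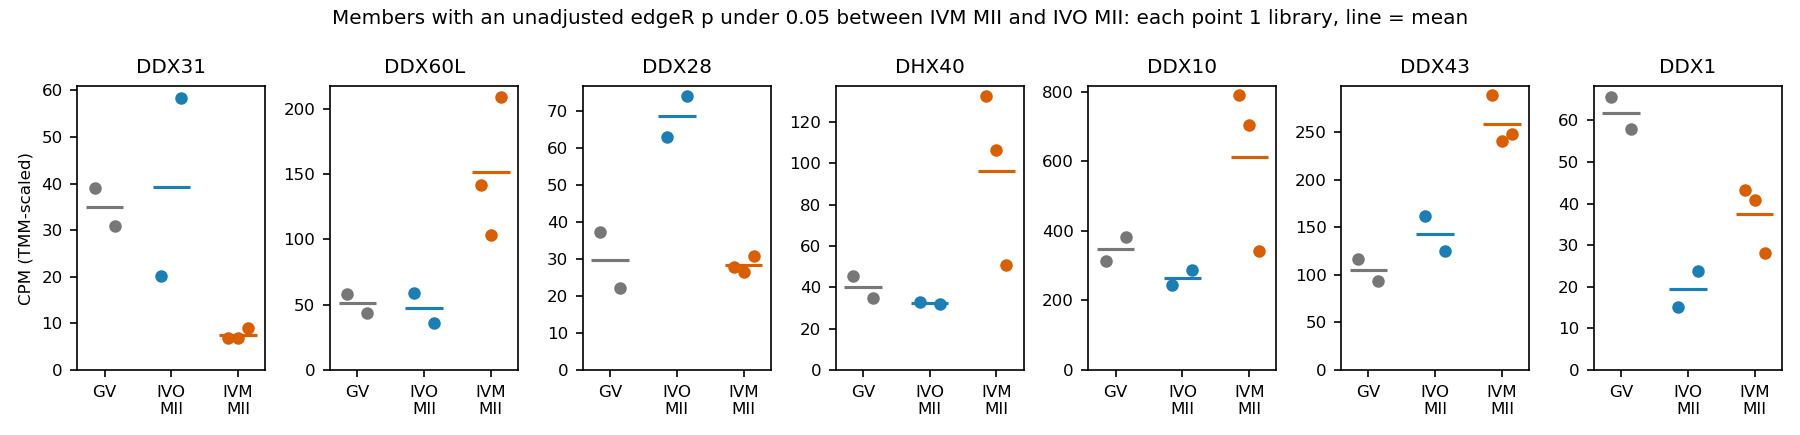
CPM (y axis, starting at 0) in each library, with group means as lines, for the 7 members with an unadjusted p under 0.05 between IVM MII and IVO MII. DDX31 is under 10 CPM in all 3 IVM MII libraries, DDX28 is over 60 CPM only in IVO MII, and in DHX40 and DDX10 IVM MII replicate 3 (50.7 and 341 CPM) lies well under replicates 1 and 2.

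Lists of partner genes were read beside the members. Of other RNA helicases, 21 of 23 genes in the table were tested: 4 rose and 1 fell in IVO MII (23.8% called, against 28.1% of all genes), and 5 rose and 2 fell in IVM MII (33.3% against 36.3%). EIF4A2, a helicase of the cap-binding complex, rose from 417 ± 62.5 CPM in GV to 1731 ± 564 in IVO MII and 1964 ± 325 in IVM MII. Its log2 fold changes were 2.05 and 2.23 (adjusted p = 0.00519 and 0.0025). EIF4A2 was singled out after its values were seen. In the same list YTHDC2 had higher log2 fold changes (2.34 and 2.83, both called). EIF4A1 was called in neither comparison (log2 fold changes -0.50, SE 0.65, and -0.91, SE 0.59). Of the called genes of that list HELZ2 had the lowest fold change, from 13.6 ± 3.33 CPM in GV to 6 counts over both IVO MII libraries and 9 counts over the 3 IVM MII libraries (log2 fold changes -6.73 and -6.75). The 38 cofactors included MIF4G and G-patch proteins that switch helicases on and subunits of the exon junction and export complexes. Of these, 7 rose and 8 fell in IVO MII (39.5% called), and 12 rose and 9 fell in IVM MII (55.3%). Both shares were above those of all genes. The list was chosen with earlier results of these data known, and the difference was not tested. RBM17, a G-patch splicing factor, rose from 33.9 ± 4.57 CPM in GV to 366 ± 83.2 in IVO MII and 296 ± 14.3 in IVM MII (log2 fold changes 3.43 and 3.13). MAGOH, a core subunit of the exon junction complex, rose from 45.3 ± 3.97 CPM in GV to 208 ± 143 (IVO MII) and 428 ± 105 (IVM MII). THOC7, a subunit of the THO export complex, rose from 70.9 ± 22.7 CPM in GV to 566 ± 336 (IVO MII) and 590 ± 206 (IVM MII). ZGPAT, another G-patch protein, had no counts in either IVO MII library and 8 counts over the IVM MII libraries. With 3 counts in each library as the limit, ZGPAT in IVO MII was at least 43.4-fold lower than in GV. GPKOW fell from 61.4 ± 8.93 CPM in GV to 8.15 ± 6.26 (IVO MII) and 3.29 ± 0.607 (IVM MII), with log2 fold changes of -2.91 and -4.22.

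Of the 59 tested genes of both lists 1 (1.69%, against 1.47% of all genes) was called between the MII groups. It was CASC3, a subunit of the exon junction complex. CASC3 was at 33.6 ± 2.20 CPM in GV and fell to 4.23 ± 0.209 in IVO MII, while IVM MII had 38.7 ± 15.1. This made a log2 fold change of 3.19 (SE 0.48, adjusted p = 0.0271) between the MII groups. It was thus low in IVO MII and near the GV level in IVM MII.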

How the data were processed

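The deposited table holds unnormalized counts for each gene with its coordinates and length. The submitters' processing notes name featureCounts 2.0.1, Bowtie2 2.4.5, Trim Galore 0.6.7, DESeq2 and SAMtools 1.15.1. The build, the strand setting and the handling of reads with several matches were not given in the sources used here. Per the labels' protocols, cDNA was primed on poly(A), switched at the template end, amplified and tagmented, so a count can also depend on the poly(A) tail. Bowtie2 does not split reads across introns. Lines of 3 genes were broken in the table (10 lines) and were left out. The column of IVO MII replicate 2 carries a file name numbered 3.

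The counts of all 7 libraries entered 1 edgeR 4.0.16 quasi-likelihood fit (TMM, filterByExpr) in R 4.3.3. Each pair of groups was compared with two-sided tests, Benjamini-Hochberg adjustment over 16374 genes and calls at 0.05. The SE is the log2 fold change over the root of F. Alternatives were other scalings, filters, tools (DESeq2 1.42.0, limma 3.58.1), samples in the fit, a replicate block and leaving out each library, and, added after seeing the data, edgeR's other dispersion method. The fitting code was tried on simulated counts that gave all genes the same spread, so that trial says little about errors in these data. Exon bases shared with other rows were counted from the table's coordinates, and 49 of 51 symbols were in a RefSeq gene table (T2T-MFA8v1.1), used for names only. Other analysis used Python 3.11.15 and pandas 2.3.3.

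The members and gene lists were chosen with earlier results of these data known. Values in each library are given for the 4 members with the smallest p between the MII groups, the 6 called members with the highest and the 6 with the lowest fold change against GV in each comparison (10 CPM or more in the higher group), the 6 highest per length and the paralog pairs. Other members given with library values, such as DDX43, DDX58 and DDX25, were chosen after their values were seen. Of partner lists, the 2 called genes that rose most and the 2 that fell most in each comparison are named, or fewer where fewer were called.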

Additional observations from a re-analysis of the deposited data

How the results depend on the processing

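Of the members called against GV, DDX18, DDX39A, DDX39B and DDX56 kept the call in all 17 alternatives of both comparisons and DDX23 in those of IVM MII, and no call changed direction. The calls from GV to IVO MII numbered 8 with unscaled totals and 4 to 16 with 1 library left out, against 14, and limma voom called 7 higher and 9 lower. From GV to IVM MII there were 24 with DESeq2, 23 with limma voom, 23 with edgeR's other dispersion method, and 5 to 19 with 1 library left out, against 15. Between the MII groups, against 0, there were 1 with DESeq2 size factors, 1 with upper quartile scaling, 1 with a filter of 1 CPM, 1 with the other dispersion method, 2 with no filter, 4 with DESeq2 and 0 to 3 with 1 library left out. With unscaled totals the members had a median of -0.62 (IVO MII) and -0.48 (IVM MII). It ranged, with 1 library left out, from -0.45 to 0.12 in IVO MII and from -0.0755 to 0.34 in IVM MII. Without scaling by length the 6 leading members held 54.2% (IVO MII) and 57.1% (IVM MII). From GV to IVO MII, DESeq2 also called DDX41, DDX49, DDX58, DHX8 and DHX33, which are not among the 14. The cause of these shifts was not tested.

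Replicate numbers gave no sign of pairing the libraries. Deviations of same-numbered libraries from their group means correlated at -0.14 to 0.21, and those of libraries with different numbers at -0.28 to 0.28. In a group of 2 libraries the deviations mirror each other, so this check cannot show that pairing is absent. With the replicate number as a block, the calls were 14 in IVO MII, 20 in IVM MII and 4 between the MII groups (DDX10, DDX31, DHX40 and DDX60L). The highest replicate number occurs in IVM MII only, so the block fitted that library by its own term. It was thus in effect left out of all these comparisons. DDX10, DDX31 and DHX40, but not DDX60L, were also called between the MII groups when that library was left out without a block. An effect of the block cannot be told apart from that of losing the library. DHX33, DDX41 and DDX49, at most 1.05 CPM in any MII library, had standard errors above 1 on the log2 scale in each comparison. Their low counts limit what can be said of them.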

Other observations

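Some members were uneven within a group. The following were picked after their values were seen. Members with at least 10 CPM in an MII library numbered 35. In 8 of them IVO MII replicate 2 was more than 2 times IVO MII replicate 1, and the reverse held in 0. DDX39A (4.99 and 20.4 CPM), DDX56 (7.24 and 26.3) and DDX55 (10.4 and 32.9) were the widest of the 8. How often such gaps occurred over all genes was not counted, so they cannot be read as a trait of the members. IVM MII replicate 3 was more than 2 times both other IVM MII libraries in 2 members, DDX55 (39.3 CPM against 7.03 and 8.33) and DDX58 (296 CPM against 82.2 and 94.3), and less than 1 in 2 of both in 3, DHX36, DHX40 and DDX10. DDX55 and DDX58 were thus high in the same 2 libraries, IVO MII replicate 2 and IVM MII replicate 3. Over all genes with enough counts, the deviations of these 2 libraries from their group means correlated at 0.28. DDX60 had 54 counts in IVM MII replicate 3 and at most 8 in any other library. DDX25 had 0 counts in IVM MII replicate 1 and 143 and 153 in the 2 others.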
